A study of Mus musculus with 8 samples.

Results

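The subunits of respiratory complexes II, III, IV and V that the nuclear genome encodes, with cytochrome c, were examined in mouse brown adipose tissue (BAT). The mice had undergone either thoracic aortic constriction (TAC), in which the aorta is narrowed and the left ventricle has to pump against a higher pressure, or the same surgery without the constriction (Sham). A gene was a member when its symbol was Sdha, Sdhb, Sdhc, Sdhd, Cyc1 or Cycs, or began with Uqcr, Cox4i, Cox5, Cox6, Cox7, Cox8 or Atp5. Cox6a2, Cox7a1, Cox8b, Atp5s and Atp5sl were left out. This gave 46 of the 21154 named genes on the array, measured by 71 of its 55681 probes. All mice were male C57BL/6NCrSlc wild-type animals, operated on at 11 weeks of age, kept at 23 °C and 13 weeks old when BAT was collected. The labels count 4 mice in each group with 1 array each, and state both 2 and 4 weeks between surgery and collection, of which 2 weeks matches the stated ages. Scanner values were used for Sham-2, Sham-3, Sham-4 and the 4 TAC arrays, and Sham-1 entered only through a deposited table of all 8 arrays. Each mouse gave whole tissue, so a lower value can come from fewer cells of a type or from less RNA per cell, and these cannot be told apart.

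Complex II, succinate dehydrogenase, passes electrons from the citric acid cycle to ubiquinone, complex III passes them on to cytochrome c, and complex IV, cytochrome c oxidase, hands them to oxygen. Complex V, ATP synthase, uses the resulting proton gradient to make ATP. Brown adipocytes are packed with mitochondria and let protons return through uncoupling protein 1 (Ucp1) as heat instead, and they hold little ATP synthase for the size of their respiratory chain. The tissue label was borne out by bright probes for Ucp1 and Cidea, a lipid droplet protein of brown adipocytes, which lay 8.37 to 9.70 and 10.08 to 10.67 above the 75th percentile of their arrays on the log2 scale.

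Stretches upstream of 4 members are shown as examples. Cycs and Atp5g3 were among the genes lower on every TAC array than on Sham-2, Sham-3 and Sham-4. With Sham-1 in the comparison this held for Atp5g3 and not for Cycs. Cox6b2 and Cox7a2l were the complex IV subunits with the highest differences. Each stretch is the 250 bases before the transcription start in RefSeq's annotation of GRCm38.p6, from the minus strand and written 5′ to 3′ along the gene. Capitals mark a match to the letters searched for a nuclear respiratory factor 1 (NRF1) motif in Cycs and an oestrogen-related receptor (ERR) motif in Atp5g3.
Cycs, chr6:50566570-50566819: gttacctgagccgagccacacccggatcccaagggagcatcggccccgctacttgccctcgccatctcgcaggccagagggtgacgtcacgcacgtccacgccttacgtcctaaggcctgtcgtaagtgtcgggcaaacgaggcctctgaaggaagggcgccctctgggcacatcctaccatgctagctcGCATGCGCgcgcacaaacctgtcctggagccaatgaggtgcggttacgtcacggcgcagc
Atp5g3, chr2:73911327-73911576: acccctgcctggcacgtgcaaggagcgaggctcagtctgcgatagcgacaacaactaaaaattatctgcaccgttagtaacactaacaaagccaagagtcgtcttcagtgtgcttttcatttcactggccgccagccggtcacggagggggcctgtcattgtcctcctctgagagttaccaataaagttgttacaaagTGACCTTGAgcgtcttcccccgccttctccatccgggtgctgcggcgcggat
Cox6b2, chr7:4753095-4753344: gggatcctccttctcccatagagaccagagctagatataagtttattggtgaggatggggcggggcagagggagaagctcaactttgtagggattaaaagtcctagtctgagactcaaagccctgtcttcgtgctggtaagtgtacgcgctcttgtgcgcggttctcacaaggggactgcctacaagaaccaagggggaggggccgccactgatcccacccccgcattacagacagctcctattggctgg
Cox7a2l, chr17:83514334-83514583: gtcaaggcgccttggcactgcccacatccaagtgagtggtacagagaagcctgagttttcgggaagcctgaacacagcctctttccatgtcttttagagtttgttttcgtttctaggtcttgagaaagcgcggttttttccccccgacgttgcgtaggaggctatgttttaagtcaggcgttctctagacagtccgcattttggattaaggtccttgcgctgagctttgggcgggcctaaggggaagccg
The NRF1 letters begin 60 bases before the start of Cycs, and the ERR letters, read on the opposite strand, begin 52 bases before that of Atp5g3. NRF1, GA-binding protein (GABP), ERR and YY1 are transcription factors known to act on genes of the respiratory chain. Their letters were searched on both strands from 250 bases before to 50 after the start, in the 35 members with an entry. GCATGCGC (NRF1) was found in 8 members (Atp5g2, Atp5k, Atp5l, Cox6a1, Cycs, Sdhb, Uqcr11 and Uqcrc1) and in 2.71% of all 32851 promoters. These letters and their reverse complement can overlap, as they do in Atp5g2, Atp5k, Cox6a1 and Uqcrc1, and such a pair was counted as 1 gene. CCGGAAGT (GABP) was found in 4 members (Atp5h, Cox8a, Uqcr11 and Uqcrh) and in 3.89% of all promoters. AAGATGGC (YY1) was found in 3 members (Atp5j, Atp5j2 and Atp5pb) and in 2.75%. TCAAGGTCA (ERR) was found in 2 members, Atp5g3 and Sdhd, and in 0.423%. The match in Sdhd lies 36 bases after the start and so outside a stretch of the kind printed here. These are matches of letters only. Neither Cox6b2 nor Cox7a2l held any of the 4 in this window. Uqcrfs1, which was also lower on every TAC array than on Sham-2, Sham-3 and Sham-4, held none of them either. Its stretch is not printed.

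Most subunit genes were slightly lower after TAC, and no single gene passed the test over the whole array. Of the 46 members, 44 were well above background on enough arrays to be tested. The other 2, Cox7b2 and Cox8c, were not well above background on any of the 7 arrays. Both belong to families whose other isoforms carry the complex in most tissues, and Cox8a, the common isoform beside Cox8c, was well above background on all 7. Of the 44 genes tested, 40 had a lower mean after TAC and 4 a higher one. The share lower was 90.9%, against 55.8% of the 33364 probes tested and 55.1% of the 14990 named genes. The median difference of the members was -0.17 on the log2 scale, or -11.2%, against -0.032 over all probes.

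No member differed by enough to pass the test over all probes. By limma with Benjamini-Hochberg adjustment over all probes, 0 members passed an adjusted p of 0.05, as did 0 of all probes, and the smallest adjusted p of a member was 0.20, for Cox6b2. At an unadjusted p under 0.05, 5 members were lower, Sdhd, Uqcrc2, Uqcrfs1, Cycs and Atp5g3. That is 11.4% of those tested, against 8.43% of all probes and 8.06% of named genes, so the share of single genes past this limit was near that of the whole array. Only Cox6b2 was higher at this limit, where 4.38% of all probes were. Every TAC array lay below every Sham array for 9 members (20.5%, against 10.4% of all probes), which were Sdha, Sdhc, Sdhd, Uqcrb, Uqcrc2, Uqcrfs1, Cycs, Atp5g3 and Atp5pb. Every TAC array lay above every Sham array for 1, Cox6b2, against 5.58% of all probes. The count of 5 fell to 0 without Sham-3, to 1 (Atp5g3) without Sham-4 and to 2 (Sdhd and Uqcrfs1) without TAC-3. Quantile normalization, which forces all arrays to 1 distribution, left 28 members lower and 16 higher, or 63.6% lower against 53.3% of all probes, with a median of -0.022 against -0.017 over all probes. At an unadjusted p under 0.05, 3 members were lower under that scaling (Uqcrfs1, Atp5g3 and Atp5pb), against 8.43% of all probes.

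**Figure D1:**
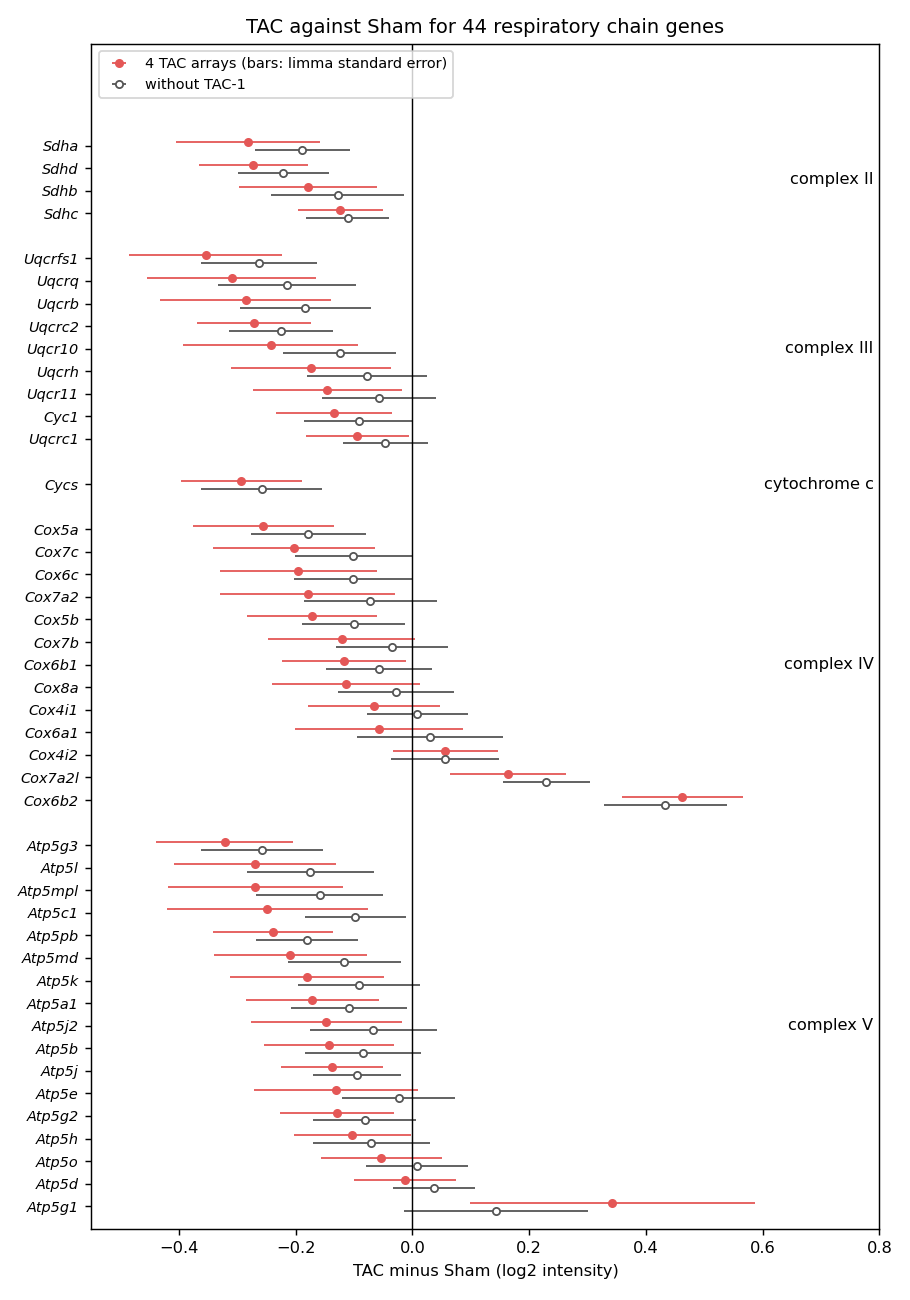
The horizontal axis is the difference of TAC from Sham in log2 intensity for each of the 44 genes tested, grouped by complex, with filled points for the 4 TAC arrays, open points for the 3 without TAC-1 and bars for limma's standard error. The genes of complexes II and III and Cycs all lie left of 0, whereas Cox4i2, Cox7a2l and Cox6b2 of complex IV and Atp5g1 of complex V lie to the right.

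Of the 44 genes, 41 were at least 6 above the 75th percentile on the log2 scale, that is, among the brightest probes of the array. Other probes between 6 and 8 on this scale (1025 of them) had a median difference of -0.021, and those above 8 (251 of them) had -0.065. The share lower was 53.1% and 71.7% in these classes, so 90.9% of the members stands nearer to the brightest class than to all probes. Under quantile normalization the same classes were at 0.046 and 0.064. The median of the members was below both classes under either scaling, and both classes were higher under quantile normalization.

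TAC-1 was the lowest of the 7 arrays for 40 of the 44 members, and Sham-3 was the highest for 38. Over all probes these arrays were lowest for 36% and highest for 21.3%. The mean of the 44 members, relative to the mean of the 3 Sham arrays, was -0.34 on TAC-1, -0.029 on TAC-2, -0.14 on TAC-3 and -0.073 on TAC-4. On Sham-2, Sham-3 and Sham-4 it was -0.094, 0.13 and -0.033. The groups therefore overlapped for the mean of all members, with TAC-2 and TAC-4 above Sham-2, and TAC-1 stood below every other array.

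Without TAC-1 the median of every complex was nearer to 0. The median of the members went to -0.093 (-6.27%), with all probes at -0.015, and 36 were lower and 8 higher (81.8% lower, against 53.2% of the 32799 probes tested). Again 0 passed the adjusted threshold, as did 0 of all probes. The same 5 genes were lower at an unadjusted p under 0.05 (11.4%, against 8.56%), and Cox6b2 and Cox7a2l were higher (against 4.72%). There were 9 members with every TAC array below every Sham array (20.5%, against 12.7%) and 2 with every TAC array above (against 8.54%). Fewer members were lower when this mouse was left out, and the 5 genes lower at the unadjusted limit were those of the 7 arrays.

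TAC-1 also differed from the other arrays in markers of several cell types. The 11 brown adipocyte markers were lower after TAC (11 of 11, with Ucp1 and Otop1 at an unadjusted p under 0.05). Over all probes 55.8% were lower and 8.43% were lower at this limit. The mean of these markers relative to Sham was -1.42 on TAC-1 and -0.66 to -0.13 on the other TAC arrays (Sham -0.17 to 0.21). Without TAC-1, 10 of 11 were lower, 3 of them at this limit (Ucp1, Otop1 and Elovl3). Over all probes these shares were 53.2% and 8.56% without TAC-1. The mean of 12 macrophage markers was 0.95 on TAC-1 and -0.42 to -0.074 on the other TAC arrays (Sham -0.17 to 0.23). In the fit 9 of 12 were higher, whereas 10 of 12 were lower without TAC-1 (4 at an unadjusted p under 0.05). Only Cd14 was higher at this limit, with TAC-1 (0.38) and without it (0.39), against 4.38% and 4.72% of all probes. The mean of 9 other immune markers was 1.71 on TAC-1 and -0.31 to -0.16 on the others (Sham -0.063 to 0.033), with 9 of 9 higher, whereas 7 of 9 were lower without TAC-1 (2 at that limit). Skeletal muscle markers, of which 16 of 17 were higher, ranged from -0.69 to 1.58 over the TAC arrays and from -0.95 to 0.95 over the Sham arrays. White adipocyte markers, 2 of 4 of them lower and Hoxc9 not well above background on any array, lay between -0.40 and 0.10 on TAC and -0.075 and 0.041 on Sham. The part of each cell type in the values of the respiratory chain was not tested. All 7 arrays came from 1 slide, with Sham in the first row and TAC in the second, so place on the slide and surgery cannot be told apart.

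**Figure D2:**
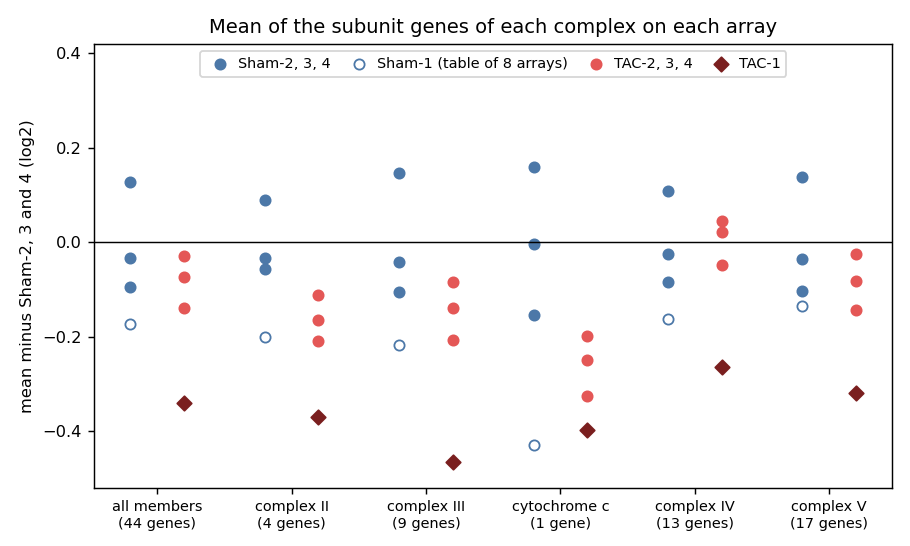
The vertical axis is the mean log2 intensity of the subunit genes of each complex, 1 point per array, with the average of Sham-2, Sham-3 and Sham-4 set to 0 and Sham-1 taken from the deposited table. TAC-1 is lowest of the TAC arrays for every complex, and Sham-1, at -0.17 for all members, lies below TAC-2, TAC-3 and TAC-4.

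Sham-1 narrowed the difference further. In the table of 8 arrays its mean over all members was -0.17 relative to the other Sham arrays, while TAC-2, TAC-3 and TAC-4 stood at -0.047, -0.15 and -0.097 there. With Sham-1 in the comparison, 39 of 44 members were lower (88.6%, against 57.7% of all probes) and the median was -0.14, against -0.039 over all probes. Only Sdhd and Atp5g3 (2 members) had every TAC array below every Sham array (4.55%, against 6.29% of all probes), and 3 were lower at an unadjusted p under 0.05 (Sdhd, Uqcrfs1 and Atp5g3, or 6.82% against 9.56%). Neither share was above that of all probes. With Sham-1 in and TAC-1 out, 35 were lower (79.5%, against 55.3%), the median was -0.066 (against -0.024), and Sdhd and Atp5g3 were lower at this limit (4.55%, against 8.64%). Sdhd and Atp5g3 were thus lower, and Cox6b2 higher, at the unadjusted limit in all 4 of these comparisons.

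All 4 subunits of complex II were lower after TAC, with a median of -0.23 (-14.5%). Every TAC array lay below every Sham array for 3 of 4, against 10.4% of all probes. With Sham-1 in the table of 8 arrays this held for 1 of 4, Sdhd, against 6.29%. Without TAC-1 the median was -0.16, in the table of 8 arrays -0.19, and under quantile normalization -0.115. Sdhd, 1 of the membrane anchors that hold the complex in the inner membrane, was at 8.20, 8.33 and 8.26 on the Sham arrays and at 7.84, 8.08, 7.98 and 8.07 on the TAC arrays. The groups did not overlap, and TAC-1 was the lowest. The difference was -0.27 (SE 0.093, unadjusted p = 0.0214, limma adjusted p = 0.327), and -0.22 without TAC-1. Sdhc, the other anchor, was at 6.84, 6.81 and 6.85 after Sham and at 6.67, 6.78, 6.69 and 6.70 after TAC. These groups were also apart, by a smaller step of -0.12 (SE 0.073, adjusted p = 0.507), and its other probe gave -0.14. In the table of 8 arrays Sham-1, at 6.88 for Sdhc, lay below TAC-2 (6.95). Sdha, the flavoprotein that oxidizes succinate, was at 7.82, 7.95 and 7.79 after Sham and at 7.29, 7.72, 7.62 and 7.66 after TAC. Its difference of -0.28 (SE 0.12, adjusted p = 0.40) became -0.19 without TAC-1. No TAC array reached the range of Sham-2, Sham-3 and Sham-4 in either case. In the table of 8 arrays Sham-1, at 7.82 for Sdha, lay below TAC-2 (7.90) and TAC-4 (7.83). Sdhb, the iron-sulfur subunit, was at 9.08, 9.45 and 9.15 after Sham and at 8.89, 9.15, 9.05 and 9.09 after TAC. Its groups overlapped on this probe, with a difference of -0.18 (SE 0.12, adjusted p = 0.542) that became 0.016 under quantile normalization. The other probe of Sdhb gave -0.19 (SE 0.089, adjusted p = 0.427), and there every TAC array (7.29 to 7.47) lay below every Sham array (7.48 to 7.67).

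The 9 genes of complex III were all lower, with a median of -0.24 (-15.5%). Every TAC array lay below every Sham array for 3 of them, against 10.4% of all probes. In the table of 8 arrays this held for 0 of 9, against 6.29%. The median was -0.125 without TAC-1, -0.20 in the table of 8 arrays and -0.078 under quantile normalization. Uqcrfs1, the Rieske iron-sulfur protein that takes electrons from ubiquinol, was at 7.77, 8.02 and 7.81 after Sham and at 7.24, 7.71, 7.56 and 7.54 after TAC. With 1 probe per gene this was the lowest coefficient of the members in the 7 arrays, -0.35 (SE 0.13, unadjusted p = 0.0299, adjusted p = 0.349), and it was -0.26 without TAC-1. The 2 further probes of Cycs had lower coefficients. Uqcrc2, a core protein of the matrix side, was at 8.25, 8.49 and 8.36 after Sham and at 7.96, 8.18, 8.10 and 8.14 after TAC. The groups were apart by a narrow margin of 8.25 against 8.18, and the difference was -0.27 (SE 0.098, unadjusted p = 0.0269, adjusted p = 0.344). Its partner core protein, Uqcrc1, was at 7.16, 7.27 and 7.19 after Sham and at 6.97, 7.15, 7.13 and 7.19 after TAC. Here the groups overlapped, with a difference of -0.095 (SE 0.089, adjusted p = 0.667).

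Among the accessory subunits of complex III, Uqcrq was lower by -0.31 (SE 0.14, adjusted p = 0.428) with overlapping groups. Its Sham values were 9.42, 9.74 and 9.46 and its TAC values 8.94, 9.44, 9.21 and 9.32. Both of its probes gave -0.31. Uqcrb, for which all 3 probes gave -0.29, and Uqcr10, with 3 probes between -0.27 and -0.23, were of similar size. Uqcrh (-0.17) and Uqcr11 (-0.15) were nearer to 0. Cyc1, the cytochrome c1 that passes electrons to cytochrome c, was at 8.92, 9.16 and 9.05 after Sham and at 8.78, 8.92, 8.91 and 9.03 after TAC. Its difference of -0.13 (SE 0.099, adjusted p = 0.585) went to 0.049 under quantile normalization.

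Cycs, the mobile carrier between complexes III and IV, was at 8.55, 8.87 and 8.71 after Sham and at 8.31, 8.46, 8.38 and 8.51 after TAC. All TAC arrays lay below all 3 Sham arrays, and the difference of -0.29 (SE 0.10, unadjusted p = 0.025, adjusted p = 0.336) changed little without TAC-1 (-0.26). Sham-1, however, lay at -0.43 relative to the other Sham arrays, lower than any TAC array, and the difference in the table of 8 arrays was -0.20. Another Cycs probe, at 6.65 to 6.90 after Sham and 6.14 to 6.48 after TAC, gave -0.40. The remaining one, at -1.99 to -1.61 and -3.97 to -2.59, gave -1.34 (SE 0.31, unadjusted p = 0.00357, adjusted p = 0.209), so all 3 had every TAC array below every Sham array by steps of different size. Cycs has many processed pseudogenes, and whether the probes tell them apart was not tested.

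**Figure D3:**
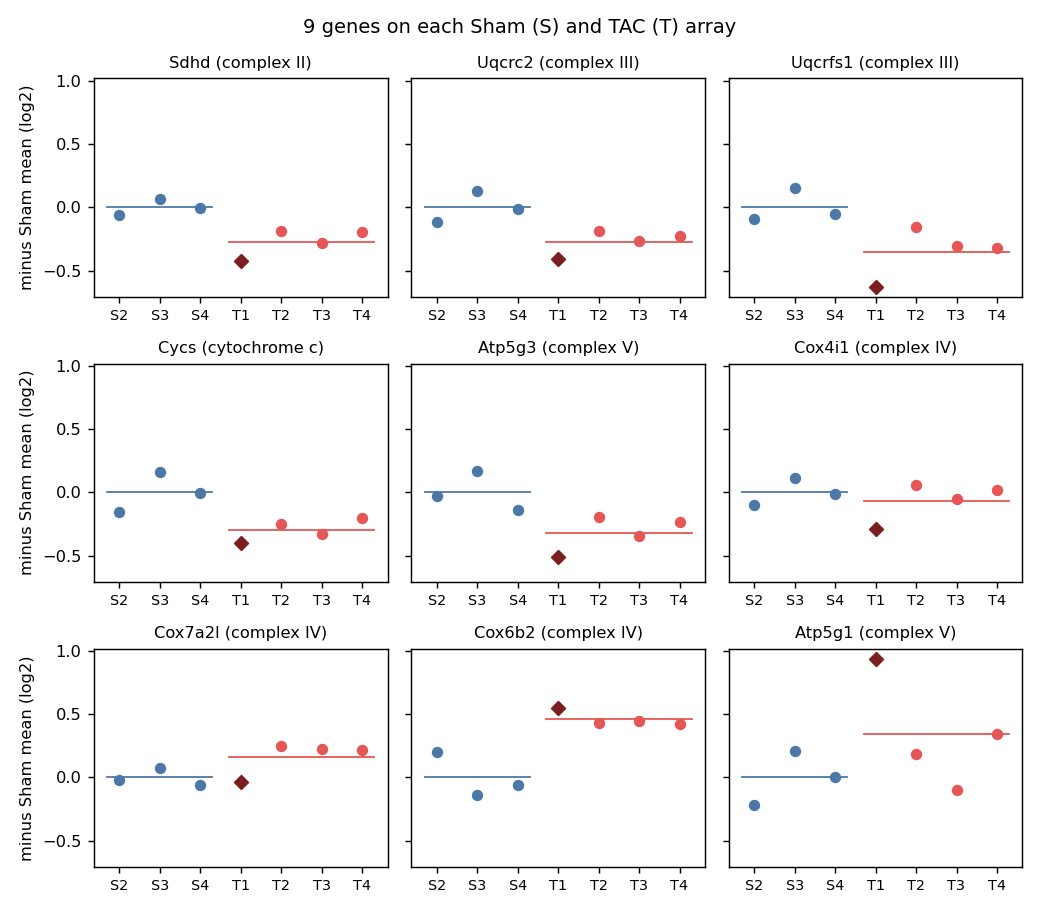
Each panel shows 1 gene on the 7 arrays in log2 intensity relative to its Sham mean, with Sham arrays S2 to S4, TAC arrays T1 to T4, lines for the group means and a diamond for TAC-1. Sdhd, Uqcrc2, Uqcrfs1, Cycs and Atp5g3 have all TAC arrays below all Sham arrays, Cox6b2 has them above, and Cox7a2l has 3 of 4 above with TAC-1 among the Sham arrays.

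Complex IV had the median nearest to 0 of the 4 complexes, although it also held Cox6b2, and the difference between complexes was not tested. Of its 13 genes tested 10 were lower and 3 higher, with a median of -0.12 (-7.82%), and 0 had every TAC array below every Sham array. At an unadjusted p under 0.05, 0 were lower and 1 was higher. Without TAC-1 the median was -0.035 (8 lower and 5 higher), in the table of 8 arrays -0.098, and under quantile normalization 0.0048, where its sign turned. Cox4i1, the largest subunit from the nuclear genome, was at 9.39, 9.60 and 9.47 after Sham and at 9.20, 9.54, 9.44 and 9.51 after TAC. Only TAC-1 lay below the Sham range, and the difference of -0.066 (SE 0.11, adjusted p = 0.821) was 0.0085 without that array and 0.085 under quantile normalization. Cox4i2, the isoform found mainly in lung and raised by low oxygen, was at 0.92, 0.91 and 1.07 after Sham and at 1.03, 0.91, 1.03 and 1.13 after TAC, with a difference of 0.056 (SE 0.09, adjusted p = 0.807). Neither isoform differed by more than its standard error.

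Cox5a, a subunit on the matrix side, had the lowest coefficient of this complex. It was at 9.44, 9.71 and 9.54 after Sham and at 9.08, 9.46, 9.31 and 9.39 after TAC, a difference of -0.26 (SE 0.12, adjusted p = 0.433), with TAC-2 just inside the Sham range. Cox5b (-0.17), Cox6c (-0.20), Cox7b (-0.12), Cox7c (-0.20) and Cox6a1 (-0.057) all overlapped between the groups. For Cox8a, at 9.71, 9.96 and 9.75 after Sham and 9.44, 9.85, 9.69 and 9.79 after TAC, the difference was -0.11 (SE 0.13, adjusted p = 0.722), and 0.0048 under quantile normalization.

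The isoform pairs of complex IV included the members that were higher. Cox6b1, the common isoform of a subunit on the cytochrome c side, was at 6.42, 6.66 and 6.48 after Sham and at 6.23, 6.49, 6.41 and 6.50 after TAC, a difference of -0.12 (SE 0.11, adjusted p = 0.656). Cox6b2, known as the testis isoform of the same subunit, was at 1.54, 1.20 and 1.28 after Sham and at 1.89, 1.77, 1.79 and 1.77 after TAC. Every TAC array lay above every Sham array. The difference was 0.46, or 37.8% (SE 0.10, unadjusted p = 0.00286, adjusted p = 0.20), and 0.43 without TAC-1. It was well above background on all 7 arrays and was measured by 1 probe. Cox7a2, the common isoform of its subunit, was at 7.67, 8.02 and 7.76 after Sham and at 7.32, 7.82, 7.66 and 7.76 after TAC, a difference of -0.18 (SE 0.15, adjusted p = 0.631). Cox7a2l, which encodes a related protein, was at 7.32, 7.42 and 7.28 after Sham and at 7.31, 7.59, 7.56 and 7.56 after TAC. On this probe TAC-1 lay within the Sham range and the other 3 TAC arrays lay above it. On another of its probes every TAC array lay above every Sham array, with TAC-1 at 5.44, the other TAC arrays at 5.47 to 5.57 and Sham at 5.27 to 5.40. The difference was 0.16 (SE 0.099, unadjusted p = 0.142, adjusted p = 0.512) with TAC-1 and 0.23 (SE 0.075, unadjusted p = 0.0212, adjusted p = 0.301) without it, and all 3 of its probes gave between 0.14 and 0.16 over the 7 arrays.

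The proteins that serve the making of complex IV stood beside these small differences of its subunits. A list of 22, called assembly factors here, had 19 genes tested, of which 18 were lower and 1 was higher. At an unadjusted p under 0.05, 8 were lower, and the median was -0.19. The list also holds Lrpprc (-0.11) and Taco1 (-0.096), which act on mitochondrial RNA and its translation rather than on assembly. Over all probes 55.8% were lower and 8.43% were lower at this limit. Cox19, which acts in the delivery of copper, was at 3.99, 4.39 and 4.27 after Sham and at 3.48, 3.67, 3.76 and 3.70 after TAC. The difference was -0.57 (SE 0.12, unadjusted p = 0.00252, adjusted p = 0.197), and all TAC arrays were below all Sham arrays. Sco1, a copper chaperone of the Cox2 subunit, was at -0.91, -0.77 and -0.66 after Sham and at -1.71, -1.38, -1.13 and -1.16 after TAC, a difference of -0.56 (SE 0.16, adjusted p = 0.272). The others at this limit were Cox20 (-0.41), Cox17 (-0.39), Coa3 (-0.33), Cox11 (-0.31), Coa6 (-0.26) and Cox10 (-0.25). Of these, Cox17 and Cox11 also handle copper and Cox10 acts at a step on the way to haem a. Sco2, a related copper chaperone, was the 1 with a higher mean (0.24, adjusted p = 0.462). Without TAC-1 the list had 7 genes lower at this limit and a median of -0.16. Under quantile normalization, which took the median of the subunits to 0.0048, it had 8 lower and 1 higher at this limit and a median of -0.14. The count was 2 without Sham-3, 5 without Sham-4 and 5 without TAC-4, and 3 in the table of 8 arrays without TAC-1. The difference between subunits and assembly factors was not tested.

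**Figure D4:**
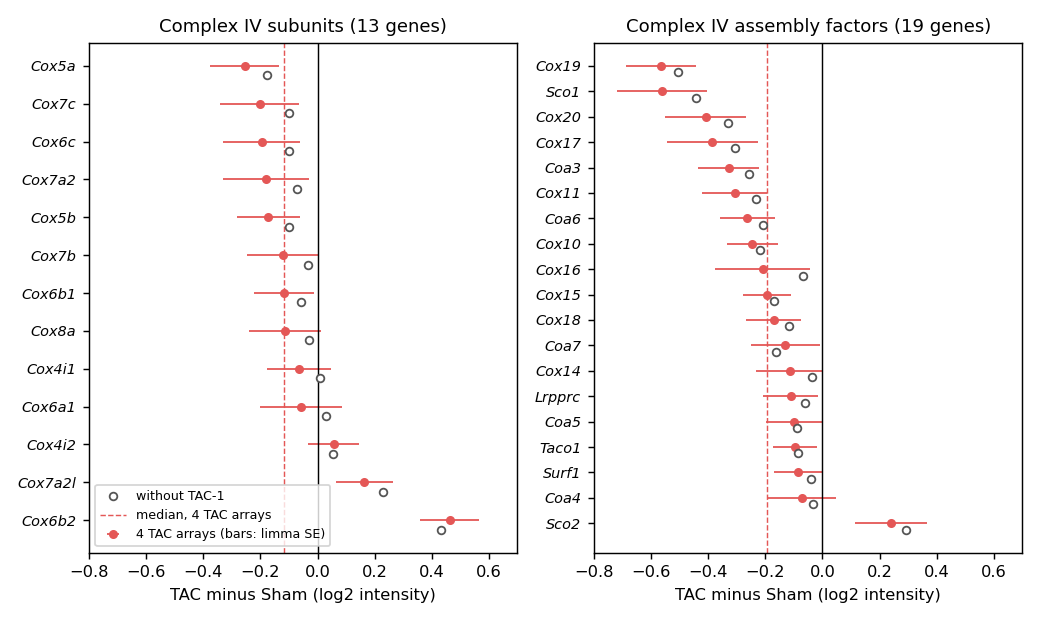
The horizontal axis is the difference of TAC from Sham in log2 intensity for the subunits of complex IV on the left and its assembly factors on the right, with limma's standard error for the 4 TAC arrays, open points for the values without TAC-1 and a dashed line at the median of each list (-0.12 and -0.19). All but 1 of the 19 assembly factors and 10 of the 13 subunits lie left of 0.

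Complex V had 17 genes tested, 16 lower and 1 higher, with a median of -0.15 (-9.72%), and -0.091 without TAC-1. In the table of 8 arrays the median was -0.13 and under quantile normalization -0.018. Its c-ring is built of 1 small proteolipid that 3 genes encode. Atp5g3 was at 7.10, 7.30 and 6.99 after Sham and at 6.62, 6.93, 6.79 and 6.89 after TAC. All TAC arrays lay below the Sham arrays, and the difference was -0.32 (SE 0.12, unadjusted p = 0.0281, adjusted p = 0.347), with -0.26 without TAC-1 and -0.31 in the table of 8 arrays. Atp5g2 was at 8.20, 8.41 and 8.19 after Sham and at 7.99, 8.21, 8.17 and 8.17 after TAC, with overlapping groups and a difference of -0.13 (SE 0.098, adjusted p = 0.595), and its other probe gave -0.23. Atp5g1, whose low level is known to limit ATP synthase in brown fat, was at 2.73, 3.16 and 2.95 after Sham and at 3.88, 3.13, 2.85 and 3.29 after TAC. TAC-1 alone stood well above the Sham range, and the difference of 0.34 (SE 0.24, adjusted p = 0.572) was 0.14 without it.

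The catalytic head of complex V overlapped between groups for each subunit. The α subunit Atp5a1 was at -0.17, the β subunit Atp5b at -0.14 and the γ subunit Atp5c1 at -0.25 relative to Sham, the last with TAC-1 at 6.13 against 6.68 to 6.76 on the other TAC arrays and 6.75 to 6.96 on Sham. Atp5d (-0.012), Atp5e (-0.13) and Atp5o (-0.053), the δ and ε subunits and the stalk protein known as OSCP, differed from Sham by less than their standard errors. Of the stator, Atp5pb, the b subunit, was at 6.49, 6.70 and 6.68 after Sham and at 6.21, 6.47, 6.41 and 6.45 after TAC. The groups just failed to touch, at 6.49 and 6.47, and the difference was -0.24 (SE 0.10, adjusted p = 0.396) with both probes at -0.24. With Sham-1 in the table of 8 arrays the groups overlapped. Atp5h (-0.10) and Atp5j (-0.14), other stator subunits, overlapped. Atp5l, the g subunit, was at 8.83, 9.13 and 8.90 after Sham and at 8.40, 8.88, 8.69 and 8.76 after TAC, and its 5 probes gave between -0.30 and -0.21. Atp5k (-0.18), Atp5j2 (-0.15), Atp5md (-0.21) and Atp5mpl (-0.27), further small subunits of the membrane part, were lower with overlapping groups.

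Complex I, which feeds the same chain from NADH, had 34 of 36 genes lower, 6 of them at an unadjusted p under 0.05, with a median of -0.20, beside 55.8% and 8.43% of all probes. Its median was -0.12 without TAC-1, and under quantile normalization 25 of 36 were lower with a median of -0.063. Assembly factors of complexes II, III and V were lower for 4 of 4, 6 of 6 and 4 of 5 genes, with medians of -0.16, -0.17 and -0.18. Without TAC-1 these were 2 of 4, 5 of 6 and 4 of 5, with medians of -0.05, -0.074 and -0.06. At an unadjusted p under 0.05 in the 7 arrays these lists had 1 (Sdhaf2, -0.39), 2 (Bcs1l, -0.21, and Lyrm7, -0.65) and 1 (Tmem70, -0.24). The complex V list also holds Atpif1, which encodes the inhibitor of ATP synthase rather than an assembly factor, and this was its 1 gene that was higher. Atpif1 was at 3.98, 4.11 and 4.04 after Sham and at 4.47, 4.16, 4.21 and 4.14 after TAC, all TAC arrays above all Sham arrays (0.20, SE 0.11, adjusted p = 0.469). Of 11 regulators of mitochondrial genes, 9 were lower and 2 higher with a median of -0.031, and 0 passed the unadjusted limit. Ppargc1a, the coactivator PGC-1α, was at -0.009 relative to Sham (SE 0.42) and at 0.26 without TAC-1. Its values spread widely, from 2.28 to 3.55 after Sham and from 2.23 to 3.71 after TAC, so a change in either direction cannot be told from 0. Esrra was at -0.23 (SE 0.12) and Tfam at -0.15 (SE 0.087) relative to Sham. Gabpb1, a subunit of GABP, was at 0.22 with all TAC arrays above. Of the isoforms left out of the members, Cox6a2, itself 1 of the 17 muscle markers, was at 0.86, Cox7a1 at -0.16 and Cox8b at -0.064. Cox7a1 and Cox8b were bright on every array, at 9.29 to 9.78 and 9.47 to 9.97, whereas Cox6a2 ranged from 0.56 to 3.23. The signal of Cox7a1 and Cox8b is thus not to be read as that of muscle.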

How the data were processed

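Total RNA of BAT was labelled with Cy3 and hybridized to one-colour Agilent arrays, 1 per mouse. Per the labels, the authors extracted the spots with Agilent Feature Extraction 10.7.1.1. The deposited values are background-subtracted intensities on a linear scale for 7 arrays, and a table of intensities of all 8 arrays whose values were, on each of the 7 arrays, for at least 99.98% of the probes above 100 intensity units equal to the scanner value times 1 constant, to within 1%, with a 75th percentile of 1.002 to 1.004 in each column. How that table was made is not given in the sources used here.

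Control spots and 134 to 191 outlier spots per array were left out, at most 1 saturated spot per array was kept, log2 was taken, the 75th percentile of the array was subtracted and spots of a probe were averaged. The 33364 probes that were well above background on 3 or more arrays, with 2 or more arrays measured per group, entered a limma model (version 3.58.1, R 4.3.3, lmFit followed by eBayes). The p-values were adjusted over all of them by the method of Benjamini and Hochberg. All adjusted p-values are from this fit, or from the same fit without TAC-1. The script was tested on simulated data. Of the spots, 54.5% to 64.3% per array were well above background, and the number of arrays limits the precision. The p-values measure the spread between these mice.

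Symbols came from RefSeq's annotation of GRCm38.p6 and named 50.3% of probes (94.1% of those with a RefSeq accession). The probe with the highest mean stands for its gene. Of the members, 29 had 1 probe and 17 several, and 0 had tested probes of opposite direction. The members named singly are those of complex II, Cyc1, Cycs, the 3 smallest unadjusted p and the highest coefficient in each of complexes III to V, the isoform groups and members not tested. Other members are given by their differences. Members, lists and tests were chosen with earlier results of these data known. A gene of a supporting list is named because it passed the unadjusted limit or because of its role, and was chosen after its values were seen.

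Alternatives were normexp background correction (offset 50), median centring, quantile normalization, the table of 8 arrays with and without TAC-1 and of the same 7 arrays, other filters, the mean of all probes, the methods' t-test, an intensity trend, the replicate number as a block and each array left out. Those for the assembly factors of complex IV were chosen after seeing the data.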

Additional observations from a re-analysis of the deposited data

Results flagged for a closer look

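Cox7a2l on TAC-1 was at 7.309 above the 75th percentile on the log2 scale, whereas the other 3 TAC arrays lay close together between 7.558 and 7.589, so that the gap took up 0.889 of the group's range. This holds for the probe that stands for the gene. On its other probes TAC-1 was at 5.44 against 5.47 to 5.57 and at 6.90 against 7.04 to 7.12 on the other TAC arrays, closer to them. It was picked out because a single array lay far from the rest of its group. The search covered 56 groups of 4 arrays, made of the means of the complexes and the genes named singly, and this was the 1 found. Chance picks out about 1 in 20 such groups.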

How the results depend on the processing

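The count of members past the adjusted threshold was 0 under all 20 alternatives. Of 460 values of 23 genes, 452 had the direction of the values reported and 8, of 5 genes, turned. The filters, the methods' t-test and the intensity trend cannot change a gene's difference. The block over 7 arrays repeats the differences without TAC-1, and the block over the table of 8 arrays repeats those of that table. The count of 452 therefore does not measure how firm the direction is. The number lower at an unadjusted p under 0.05 (5 in the values reported) was 11 under normexp, 9 with an intensity trend, 3 in the table of 8 arrays, 3 under quantile normalization, 2 in that table without TAC-1 and 0 with the replicate number as a block over 7 arrays. With each array left out it ranged from 0 (without Sham-3) to 7. The number higher (1) was 2 under quantile normalization and 2 in the table without TAC-1, and ranged from 1 to 2 with each array left out. The medians moved most under quantile normalization, to -0.022 for all members, -0.115 for complex II, -0.078 for complex III, 0.0048 for complex IV and -0.018 for complex V. With each array left out they ranged from -0.23 to -0.09, -0.27 to -0.16, -0.30 to -0.125, -0.17 to -0.035 and -0.21 to -0.091. Complex II was at -0.12 in the table without TAC-1. Of the 23 genes, quantile normalization turned Sdhb (0.016), Cyc1 (0.049), Cox4i1 (0.085) and Cox8a (0.0048), and the table without TAC-1 turned Uqcrc1 (0.0060) and Cox4i1 (0.027). Members outside the 23 turned too. Under quantile normalization 16 of all 44 members were higher, against 4 in the values reported. Cox6a1 (0.030), Atp5d (0.037) and Atp5o (0.0076) were higher without TAC-1. Cox4i1 was 0.0085 with the block over 7 arrays and -0.12 to 0.0085 with each array left out. Of the complex IV assembly factors, 8 were lower at this limit, against 5 with no filter on dim probes, 2 with the block over 7 arrays, 3 in the table without TAC-1 and 2 to 7 with each array left out. The cause was not tested in these cases. The deviations of same-numbered arrays had correlations of 0.0017, -0.03 and -0.02 over the scanner arrays. Over the table of 8 arrays they were 0.27 for replicate 1 and 0.02, 0.06 and 0.02 for the rest. The numbers were not taken to pair the arrays. The block over 7 arrays uses up TAC-1, which has no partner, and over the table of 8 arrays it gave 4 members lower. With 3 or 4 arrays in a group, differences near the standard errors of about 0.12 cannot be told from 0.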
